A study of Mus musculus with 9 samples.

Results

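The heat shock and unfolded protein genes examined here are 39 genes, taken by symbol from the 40879 symbols in a table of read counts from mouse spinal cord, of which 38 had enough counts to be tested. They were chosen by name as chaperones and stress response genes, by a rule that uses no measured value but with earlier results of these data known. They are described by the compartment in which their products work: the cytosol, the mitochondrion, the endoplasmic reticulum (ER), and the signalling arms that respond to misfolded protein. The 1 member that was not tested was Trib3, with 10 counts summed over the naive libraries. All mice were wild type, and 3 groups of 3 whole spinal cord libraries were compared. Naive mice had no disease and no treatment named in the labels. Mice with experimental autoimmune encephalomyelitis (EAE), an autoimmune attack on myelin that serves as a model of multiple sclerosis, were given either vehicle or the telomerase-derived peptide GV1001. Both EAE groups carry the disease, so GV1001 was set against vehicle within it. Immunisation, dose, day of sampling, age and sex are not given in the sources used here, and nothing says that the 3 libraries of a group came from separate animals, so the p-values measure only the spread between these libraries.

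Cells hold their proteins in shape with chaperones, and raise them through separate programmes. In the cytosol, heat shock factor 1 (Hsf1) is held inactive by HSP70 and HSP90, and on release it binds heat shock elements and switches on inducible HSP70, HSP110 and small heat shock proteins. In the ER, unfolded protein is sensed by Atf6, by Ern1 (IRE1, which splices the Xbp1 messenger RNA) and by Eif2ak3 (PERK). Their transcription factors act on ER stress elements in the promoters of chaperones such as Hspa5 (BiP), while PERK feeds the integrated stress response, in which phosphorylation of eIF2 lowers general translation and favours that of Atf4. In inflamed spinal cord these programmes have been studied in oligodendrocytes, which make large amounts of membrane protein, and in astrocytes, which carry small heat shock proteins.

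Promoters were read for the motifs of these programmes. A window of 300 bases, from 250 before the start site to 50 after it, was read from RefSeq (build GRCm38.p6) for the 31 members with an entry, and 4 motifs were searched on both strands. Hsp90ab1, Hsp90aa1, Cryab, Hsf1, Hspa8, Hspa9, Manf and Atf6 had no entry, so nothing is known here of motifs in their promoters. The ER stress element was taken as CCAAT and CCACG with 9 bases between them. It was found in 39 of 32851 mouse promoters, which is 0.119%, and counted by gene in 37 of 27025 genes, which is 0.137%. It was present in 7 members: Hspa5, Hsp90b1, Dnajc3, Calr, Canx, Pdia6 and Creld2. All of these belong to the list of ER chaperones and folding or degradation factors, of which 13 of 14 genes had a promoter entry. The vehicle and naive libraries of Canx did not overlap when scaled to library totals, with a log2 fold change of 0.07 ± 0.08 (SE), but its match is not shown. The matches below are shown for 5 others whose vehicle and naive libraries did not overlap. Calr, whose libraries overlapped, is not shown, and Dnajb11, whose libraries did not overlap, held no match. The printed set therefore shows no link between motif and level. CCAAT and CCACG (or CGTGG and ATTGG where the match is on the opposite strand) are in capitals.
Hspa5, chr2:34771990-34772078, plus strand: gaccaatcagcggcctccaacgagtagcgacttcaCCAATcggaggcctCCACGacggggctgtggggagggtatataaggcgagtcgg
Hsp90b1, chr10:86705498-86705691, minus strand: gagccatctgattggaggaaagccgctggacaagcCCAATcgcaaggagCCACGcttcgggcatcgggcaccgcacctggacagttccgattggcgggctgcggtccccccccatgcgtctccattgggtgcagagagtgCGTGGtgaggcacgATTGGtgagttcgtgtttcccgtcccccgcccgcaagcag
Pdia6, chr12:17266456-17266544, plus strand: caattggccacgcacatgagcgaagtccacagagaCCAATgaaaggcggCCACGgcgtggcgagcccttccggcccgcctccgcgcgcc
Dnajc3, chr14:118937792-118937880, plus strand: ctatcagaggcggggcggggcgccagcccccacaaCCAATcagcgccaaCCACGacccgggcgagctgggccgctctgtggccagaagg
Creld2, chr15:88819485-88819573, plus strand: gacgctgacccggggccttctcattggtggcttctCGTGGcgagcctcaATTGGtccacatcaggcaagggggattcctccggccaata
The first base of the match lay 65 bases before the start site in Hspa5, 98 before it in Pdia6, 105 before it in Dnajc3 and 126 before it in Creld2, and Hsp90b1 had a match on each strand, at 212 and 107 bases before it.

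A heat shock element was searched as adjoining units of GAA and TTC, which for 2 units is GAANNTTC or TTCNNGAA. These overlap with the longer form that adds a further unit in the same pattern. The form with 2 units is common, in 15.1% of all promoters and 17% of genes. It was present in 10 members: Hspa1a, Hspa1b, Hsph1, Hspb1, Dnaja1, Bag3, Hspd1, Hspe1, Eif2ak3 and Asns. None of the 13 ER promoters held it. The form with 3 units was in 0.603% of all promoters, or 0.662% of genes, and in the members Hsph1, Hspd1 and Hspe1. Hspd1 and Hspe1 encode the mitochondrial chaperonin and its lid and are read in opposite directions from windows that overlap on chromosome 1. The Hspe1 stretch printed below lies within a window of Hspd1, so the same match counts for both genes. The amino acid response element TGATGNAA, bound by Atf4 with a partner, was in 3.97% of all promoters, or 4.51% of genes, and in the members Herpud1, Trib3, Chac1 and Asns. The examples below show these matches in a small heat shock protein, a cytosolic and a mitochondrial chaperone and a pair of integrated stress response genes, with the matched motif in capitals.
Hspb1, chr5:135887767-135887864, plus strand: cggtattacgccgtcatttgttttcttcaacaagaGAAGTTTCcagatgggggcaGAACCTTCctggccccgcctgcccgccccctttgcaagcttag
Hsph1, chr5:149636287-149636335, minus strand: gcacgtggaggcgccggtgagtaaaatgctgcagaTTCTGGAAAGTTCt
Hspe1, chr1:55088024-55088111, plus strand: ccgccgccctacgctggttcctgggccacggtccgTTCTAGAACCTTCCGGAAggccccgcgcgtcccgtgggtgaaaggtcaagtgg
Asns, chr6:7693190-7693267, minus strand: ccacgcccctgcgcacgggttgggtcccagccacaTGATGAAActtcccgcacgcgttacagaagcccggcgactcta
Chac1, chr2:119351014-119351091, plus strand: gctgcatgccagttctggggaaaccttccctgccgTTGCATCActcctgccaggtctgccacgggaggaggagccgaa
In Hspb1 the matches began 117 and 97 bases before the start site. In Hspe1 a pair of overlapping matches began 89 and 84 bases before it, and in Hsph1 the match began 36 bases after it. The Asns match began 23 bases and the Chac1 match 193 bases before it. A match is a description of the letters and shows neither binding nor control.

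Total counts per library ranged from 5247246 to 6174870, and levels are given as counts scaled to the library total (CPM), in which 3 counts correspond to 0.486 to 0.572 CPM. Overlap between groups was judged on these CPM, before the TMM scaling used for the fold changes. The TMM factors ran from 0.9747 in vehicle replicate 1 to 1.033 in vehicle replicate 3, so narrow separations depend on the scaling. The libraries read the 3′ ends of transcripts, so levels are compared between libraries within a gene and not between genes. Whole tissue was sequenced: fewer cells of a type and less RNA per cell cannot be told apart. Markers of leukocytes, microglia and macrophages summed to 421 to 506 CPM in the naive libraries, to 8538, 1130 and 3089 CPM in vehicle replicates 1 to 3, and to 554, 2805 and 920 CPM in GV1001 replicates 1 to 3. All 14 of these markers were above naive in every vehicle library, and none was at 0. Vehicle replicate 1 stood apart with the highest sum, and also had the lowest sums for oligodendrocyte (12919 CPM) and neuron markers (5432 CPM). Skeletal muscle markers summed to 4739, 1246 and 434 CPM in the GV1001 libraries against 21.1 to 520 CPM in the other libraries. Immediate early genes, which respond to handling of tissue, summed to 180 to 207 CPM in naive and 220 to 289 CPM in the EAE libraries. The final 300 bases of each coding transcript were searched for copies, and the highest share among a gene's transcripts was kept. By this measure Dnaja1, Hsp90aa1, Hspd1 and Hspa8 shared 80.1% or more of all stretches of 50 bases with a pseudogene or other copy. Hspe1 shared 43.8%, Hspb1 19.1% and Dnajb9 13.1%. Other transcripts of a gene may share less. The counts of these genes can carry an uncertainty of assignment that the others, including Hspa1a and Hspa1b, did not show.

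In EAE vehicle against naive cord, most ER members lay above naive and most large cytosolic chaperones below. Of the 14 ER chaperones and folding or degradation factors, 13 had positive log2 fold changes (median 0.32), while 6 of the 7 cytosolic HSP70, HSP110 and HSP90 genes had negative ones (median -0.20). The cytosolic median was -0.09, with 3 of 7 positive, without naive replicate 2, and -0.10, with 2 of 7 positive, without vehicle replicate 1. Over all 15351 genes the median was 0.00 and 49.5% were positive. Hspb1, a small heat shock protein, had the largest value of the tested members, 1.29. No member passed the edgeR quasi-likelihood test at an adjusted p of 0.05, where 0.0195% of all genes did, which is 3 genes. At an unadjusted p under 0.05 there were 7 higher and 1 lower members, beside 19.3% of all genes in either direction. Without overlap between these groups there were 12 higher members, beside 13.6% of all genes, and 1 lower member, beside 9.5%. DESeq2 called 2 members, Hspb1 and Pdia6, where it called 6.41% of its genes, and had 8 at an unadjusted p under 0.05, and limma-voom called none, with 7 at an unadjusted p under 0.05. Without vehicle replicate 2, the EAE vehicle library with the lowest leukocyte markers and with red blood cell markers of 4819 CPM against 252 to 713 CPM in the other libraries, edgeR called 5 members, beside 10.4% of all genes: Hspb1, Manf, Dnajc3 and Ern1 higher and Asns lower.

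**Figure D1:**
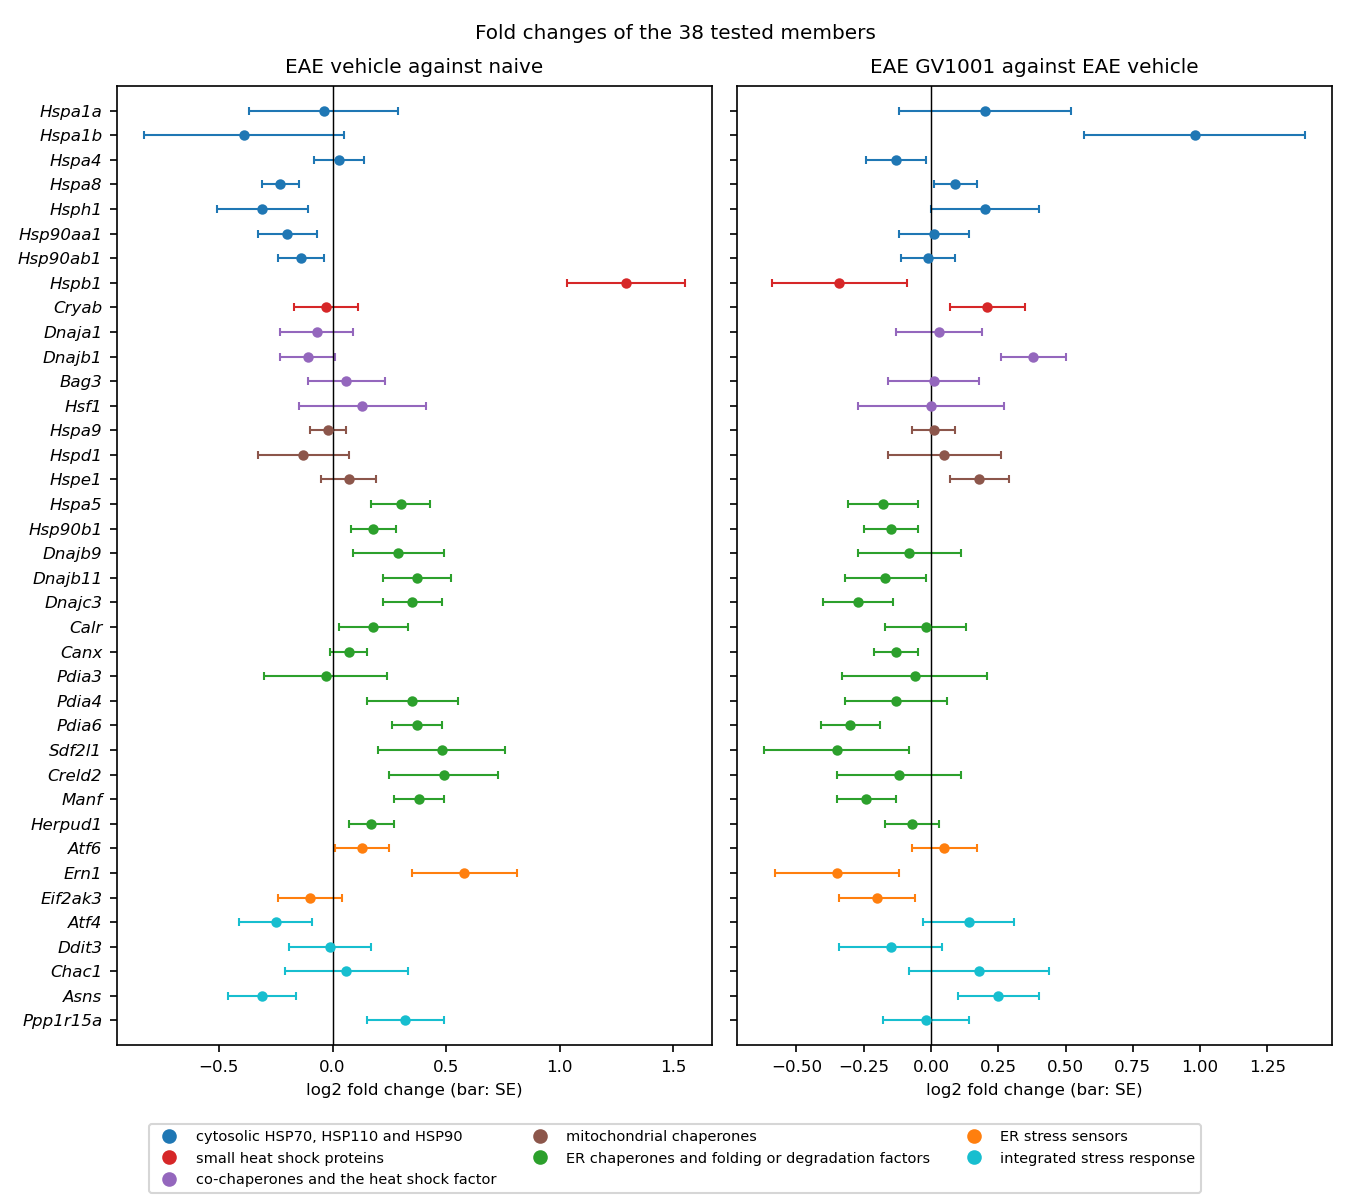
Log2 fold changes (x axis, bars show the standard error) of the 38 tested members (y axis, coloured by compartment) in EAE vehicle against naive and in EAE GV1001 against EAE vehicle, from the fit of all 9 libraries. On the left, 13 of the 14 ER genes lie right of zero and Hspb1 stands at 1.29; on the right, all 14 ER genes lie left of zero, and none of the values passed the test.

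Small heat shock proteins bind unfolding proteins without ATP and hold them for refolding. Hspb1 (HSP25 in mouse) was at 28, 35.2 and 22.2 CPM in the naive libraries, 54.9, 67.7 and 90.8 CPM in the vehicle libraries and 43.1, 79.2 and 45.3 CPM in the GV1001 libraries. Every EAE library was above every naive library, and both EAE groups overlapped each other. Vehicle against naive gave a log2 fold change of 1.29 ± 0.26 (SE), or 2.44-fold, with an unadjusted p of 0.000495 and an edgeR adjusted p of 0.0691. Over the alternatives tried the adjusted p ranged from 0.000192 with DESeq2 to 0.258. Reactive astrocyte markers, another group in which 6 of 8 genes lay above naive in every vehicle library and none was at 0, summed to 684 to 1048 CPM in naive libraries, 3601, 1163 and 2437 CPM in vehicle and 653, 2043 and 1195 CPM in GV1001 libraries. Their part in the Hspb1 values was not tested. GV1001 replicate 1 had reactive astrocyte markers below those of all naive libraries and an Hspb1 level of 43.1 CPM, above all naive libraries. It also had the highest skeletal muscle marker sum, 4739 CPM. The part of muscle in its Hspb1 level was not tested either.

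Cryab (alpha B-crystallin), the other small heat shock protein and an abundant chaperone of glia and muscle, did not follow Hspb1. It was at 409, 402 and 396 CPM in naive, 301, 428 and 488 CPM in vehicle and 502, 419 and 475 CPM in GV1001 libraries. The naive values lay within the spread of the vehicle libraries, and all 3 GV1001 libraries stood above the naive ones. The vehicle against naive log2 fold change was -0.03 ± 0.14 (adjusted p = 0.943), and it was positive, at 0.01, when only library totals were used for scaling. The difference between the changes of Hspb1 and Cryab was not tested.

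**Figure D2:**
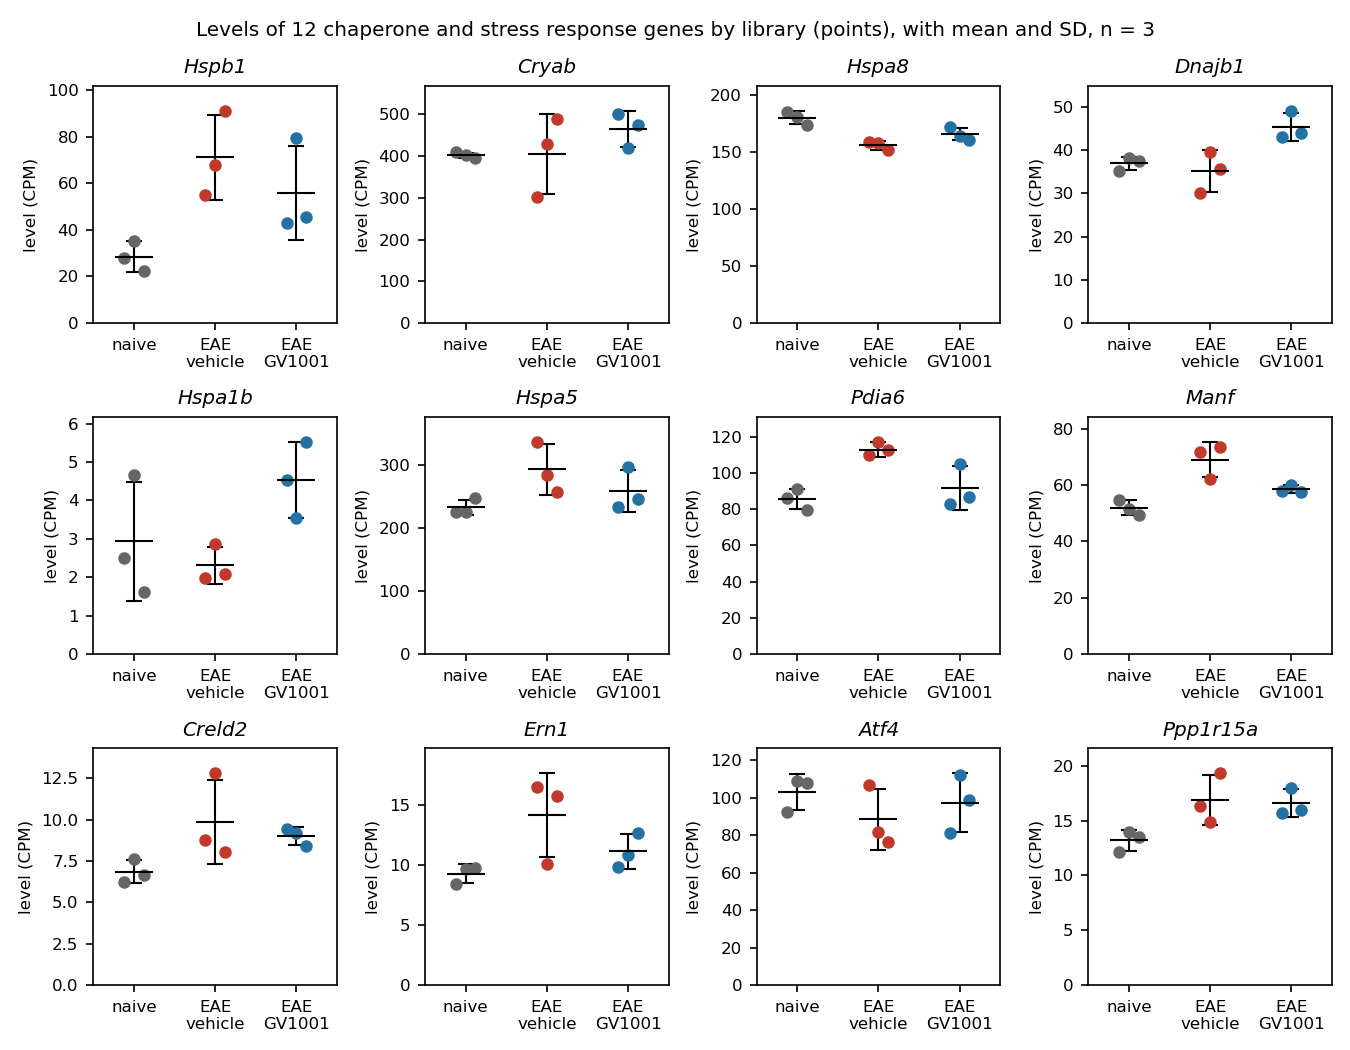
Levels (y axis, CPM from 0) of 12 members in the 3 naive, 3 EAE vehicle and 3 EAE GV1001 libraries, each point being 1 library, with the group mean and SD. Hspb1 lies above every naive library in all 6 EAE libraries, Hspa8 lies below, and Pdia6 and Manf are highest in the vehicle libraries.

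Among the cytosolic folding machines, Hspa8 (HSC70, the constitutive HSP70 that folds new chains and uncoats clathrin) was at 185, 181 and 174 CPM in naive, 159, 158 and 152 CPM in vehicle and 172, 164 and 161 CPM in GV1001 libraries. In CPM the 3 groups did not overlap one another, with vehicle lowest and naive highest. The gap between vehicle replicate 1 and GV1001 replicate 3 was narrow, with TMM factors of 0.9747 and 1.005. The separation of vehicle from GV1001 therefore depends on the scaling. Vehicle against naive was -0.23 ± 0.08 on the log2 scale, with an unadjusted p of 0.0196 and an adjusted p of 0.161 (edgeR). Neuron markers, of which 4 of 9 lay below naive in all vehicle libraries, summed to 7857 to 8179 CPM in naive, 5432 to 7682 CPM in vehicle and 6731 to 7817 CPM in GV1001 libraries, and their part in the Hspa8 values was not tested.

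Hsph1 (HSP110, which resets HSP70 by nucleotide exchange) spread much more in disease. Its levels were 202, 213 and 203 CPM in naive, 113, 229 and 171 CPM in vehicle and 226, 181 and 178 CPM in GV1001 libraries. Vehicle replicate 1 was far below, and vehicle replicate 2 above, every naive library. The log2 fold change in vehicle against naive was -0.31 ± 0.20 (adjusted p = 0.438), and -0.10 without vehicle replicate 1. Hsp90ab1, the constitutive HSP90, was at 2018, 2302 and 2085 CPM in naive, 2047, 1987 and 1889 CPM in vehicle and 1863, 2058 and 1959 CPM in GV1001 libraries. These groups overlapped, with a vehicle against naive value of -0.14 ± 0.10 (adjusted p = 0.504). Hsp90aa1, its inducible paralogue, gave -0.20 ± 0.13 (adjusted p = 0.426), and its lowest level, 656 CPM, was also in vehicle replicate 1. Hspa4, another HSP110-type exchange factor, was the only cytosolic member with a positive value, 0.03 ± 0.11.

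The stress-inducible HSP70 genes were low in every group. Hspa1a was at 7.31, 11.2 and 7.58 CPM in naive, 5.21, 13.7 and 7.32 CPM in vehicle and 9.45, 9.52 and 10.9 CPM in GV1001 libraries. Hspa1b was at 2.49, 4.66 and 1.62 CPM, then 1.98, 2.86 and 2.09 CPM, then 4.53, 3.53 and 5.51 CPM in the same order. For both genes the vehicle libraries overlapped the naive ones. The vehicle against naive log2 values were -0.04 ± 0.33 for Hspa1a and -0.39 ± 0.44 for Hspa1b, which rest on 143 and 38 counts summed over the vehicle libraries.

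The co-chaperones that deliver clients to HSP70 showed no common direction in vehicle against naive, with 2 of 4 values positive, a median of 0.00 and no gene whose groups were separate. Dnaja1, a J-domain protein, was at 139, 163 and 147 CPM in naive, 110, 185 and 145 CPM in vehicle and 171, 140 and 135 CPM in GV1001 libraries, and the groups overlapped. Dnajb1 (HSP40), the J-domain partner of inducible HSP70, was at 35.3, 38.2 and 37.5 CPM in naive, 30, 39.6 and 35.6 CPM in vehicle and 43.1, 49 and 44 CPM in GV1001 libraries. The 3 GV1001 values were above the other 6 libraries. The transcription factor Hsf1 was at 12.3, 8.8 and 12.3 CPM in naive, 15.6, 8.96 and 12.6 CPM in vehicle and 8.69, 15.2 and 13.3 CPM in GV1001 libraries. Its groups overlapped throughout, as did those of Bag3, which couples HSP70 to small heat shock proteins and autophagy and ranged from 30 to 44.1 CPM over the 9 libraries. In vehicle against naive the log2 values were -0.07 ± 0.16 for Dnaja1, -0.11 ± 0.12 for Dnajb1, 0.06 ± 0.17 for Bag3 and 0.13 ± 0.28 for Hsf1.

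The mitochondrial chaperones had log2 values from -0.13 to 0.07 in vehicle against naive and adjusted p-values of 0.778 or more. Hspa9 (mortalin), which pulls imported proteins into the matrix, was at 166, 179 and 170 CPM in naive, 166, 181 and 171 CPM in vehicle and 179, 175 and 167 CPM in GV1001 libraries. Its vehicle against naive value was -0.02 ± 0.08. Hspd1 (HSP60) was at 54, 48.3 and 50.3 CPM in naive, 35.7, 54.7 and 52.3 CPM in vehicle and 66.3, 39.8 and 41.5 CPM in GV1001 libraries. The lid of the same chamber, Hspe1 (HSP10), was at 63.1, 62 and 57 CPM, then 61.6, 64.6 and 68.7 CPM, then 79.7, 62.6 and 78.1 CPM. Vehicle replicate 1 was the lowest of the 9 libraries for Hspd1 and within the naive range for Hspe1. The log2 values were -0.13 ± 0.20 for Hspd1 and 0.07 ± 0.12 for Hspe1.

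The ER list gave the most regular pattern in vehicle against naive. Of its 14 genes, 13 were positive, 5 had an unadjusted p under 0.05 (all genes 19.3%), and 8 had no overlap between groups in CPM, all higher (all genes 13.6%): Hspa5, Hsp90b1, Dnajb11, Dnajc3, Canx, Pdia6, Creld2 and Manf. The separations of Hspa5 and Canx were narrow and depend on the scaling. The 13 positive values were also found with TMM, with DESeq2-type size factors and with library totals only, and the list's values ran from -0.03 to 0.49. Without vehicle replicate 1, 12 of 14 were positive with a median of 0.23, and without vehicle replicate 2, 14 of 14 with a median of 0.30. Relative to the naive mean, the list's median log2 level was 0.43, 0.23 and 0.31 in vehicle replicates 1 to 3. In the naive libraries it lay between -0.02 and 0.02. The leukocyte (8538, 1130 and 3089 CPM) and reactive astrocyte marker sums (3601, 1163 and 2437 CPM) of vehicle replicates 1 to 3 stood in the same order. Oligodendrocyte (12919, 17258 and 15947 CPM) and neuron sums (5432, 7682 and 6439 CPM) stood in the reverse order. These 3 libraries cannot tell these cell types apart, and the part of each was not tested.

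Hspa5 (BiP), the HSP70 of the ER and the brake on all 3 sensors, was at 226, 226 and 247 CPM in naive, 336, 285 and 257 CPM in vehicle and 233, 297 and 246 CPM in GV1001 libraries. In CPM all 3 vehicle libraries were above naive, while the GV1001 libraries overlapped both groups. The gap between naive replicate 3 and vehicle replicate 3 was narrow, with TMM factors of 0.9782 and 1.033, so the separation depends on the scaling. The log2 fold change in vehicle was 0.30 ± 0.13, with an unadjusted p of 0.046 and an adjusted p of 0.246, and it was 0.16 without vehicle replicate 1. Hsp90b1 (GRP94), the HSP90 of the ER, was at 284, 276 and 280 CPM in naive and 337, 323 and 312 CPM in vehicle libraries, a separation with a log2 value of 0.18 ± 0.10 (adjusted p = 0.335). Both promoters carry the element printed above. The J-domain partners of BiP, Dnajb11 and Dnajc3 (p58IPK, which also inhibits PERK), gave 0.37 ± 0.15 (adjusted p = 0.192) and 0.35 ± 0.13 (adjusted p = 0.158). Dnajc3 was at 79.5, 88 and 90.6 CPM in naive, 124, 95.7 and 115 CPM in vehicle and 87.5, 101 and 88.4 CPM in GV1001 libraries. It was the only member whose 6 EAE libraries stood in the same order as their leukocyte marker sums. Dnajb9, a further J-domain partner that restrains Ern1, had overlapping groups.

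Protein disulphide isomerases form and rearrange disulphide bonds. Pdia6, which also acts on the luminal part of Ern1, was at 110, 117 and 113 CPM in vehicle libraries against 86.4, 91 and 79.6 CPM in naive libraries, with no overlap. In GV1001 libraries it was at 83.1, 105 and 86.8 CPM, below every vehicle library and overlapping naive. Vehicle against naive was 0.37 ± 0.11, with an unadjusted p of 0.00582 and an adjusted p of 0.1 by edgeR, which ranged from 0.0492 with DESeq2 to 0.292 over the alternatives. Pdia4 gave 0.35 ± 0.20 (adjusted p = 0.37) with overlapping groups. Pdia3 (ERp57), which works with the lectin chaperones and in loading of MHC class I, was at 129, 168 and 143 CPM in naive, 206, 104 and 125 CPM in vehicle and 102, 185 and 134 CPM in GV1001 libraries. Its highest values were in vehicle replicate 1 and GV1001 replicate 2, and its log2 value went from -0.03 ± 0.27 to -0.41 without vehicle replicate 1.

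Of the lectin chaperones that hold glycoproteins, Calr was at 187, 182 and 172 CPM in naive, 254, 189 and 178 CPM in vehicle and 184, 233 and 198 CPM in GV1001 libraries, so that its vehicle mean was set by replicate 1. Its log2 value of 0.18 ± 0.15 (adjusted p = 0.569) was -0.03 without that library. Canx was at 313, 315 and 310 CPM in naive, 344, 335 and 326 CPM in vehicle and 303, 310 and 301 CPM in GV1001 libraries. The Canx separation of vehicle from naive was complete in CPM but small, with a log2 value of 0.07 ± 0.08 (adjusted p = 0.697) after TMM scaling. The TMM factor was 1.033 in vehicle replicate 3 and 0.9782 to 0.994 in the naive libraries, so the separation depends on the scaling.

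The secreted or luminal factors included the largest values of the ER list. Creld2, a small disulphide-handling protein, was at 6.24, 7.6 and 6.68 CPM in naive, 8.8, 12.8 and 8.02 CPM in vehicle and 9.45, 9.17 and 8.42 CPM in GV1001 libraries. All 6 EAE libraries were above the naive ones, with a vehicle against naive value of 0.49 ± 0.24 (adjusted p = 0.295). Manf, a neurotrophic factor retained in the ER until calcium falls, was at 54.9, 51.6 and 49.4 CPM in naive, 71.8, 62.1 and 73.4 CPM in vehicle and 57.8, 60.1 and 57.5 CPM in GV1001 libraries. The 3 Manf groups did not overlap one another, with GV1001 between naive and vehicle. Vehicle against naive was 0.38 ± 0.11, with an unadjusted p of 0.0045 and an adjusted p of 0.0941 that ranged from 0.0234 to 0.272 over the alternatives. Sdf2l1, a cofactor of BiP, was at 10.9, 10 and 14.3 CPM in naive, 23.3, 11.6 and 14.6 CPM in vehicle and 12.5, 14.8 and 11.8 CPM in GV1001 libraries. Its groups overlapped, and its log2 value of 0.48 ± 0.28 (adjusted p = 0.39) was 0.12 without vehicle replicate 1. Herpud1, a scaffold of ER-associated degradation, gave 0.17 ± 0.10 (adjusted p = 0.371).

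**Figure D3:**
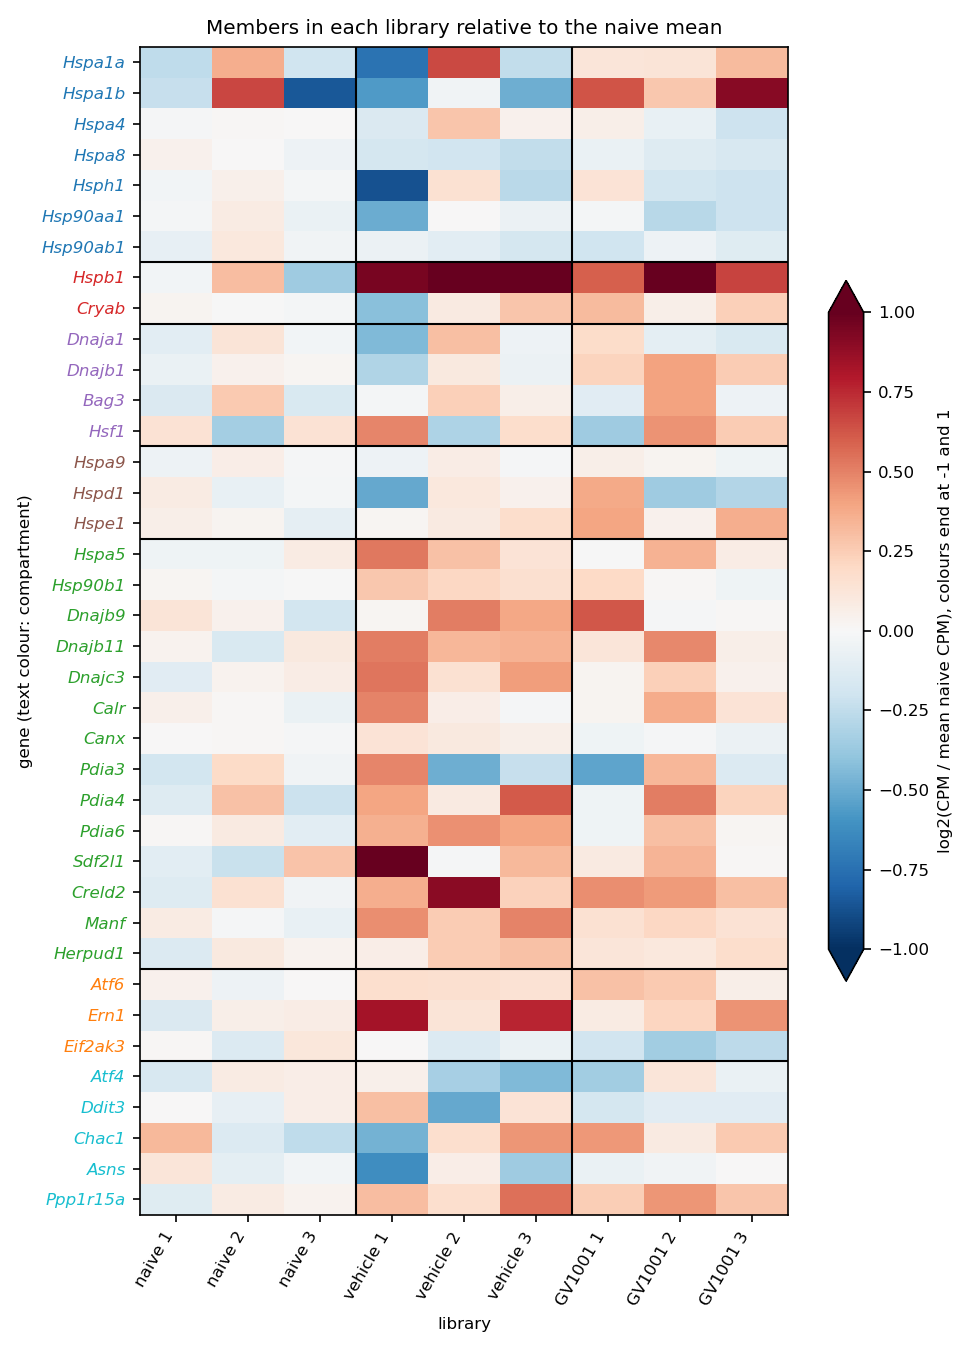
Log2 of the level of each of the 38 tested members (rows, gene names coloured by compartment) in each of the 9 libraries (columns) relative to the naive mean CPM, with the colour scale ending at -1 and 1. The ER block is mostly red in the 3 vehicle libraries, and vehicle replicate 1 is blue for Hsph1, Hspd1 and Asns but red for Sdf2l1, Pdia3 and Calr.

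The 3 sensors did not share a direction. Ern1 (IRE1) was at 8.37, 9.67 and 9.74 CPM in naive, 16.5, 10.1 and 15.7 CPM in vehicle and 9.82, 10.8 and 12.6 CPM in GV1001 libraries. In CPM every EAE library was above naive, but the lowest vehicle and GV1001 values were close to the naive range. The TMM factors were 0.9782 for naive replicate 3 and 1.003 for GV1001 replicate 1, so this separation depends on the scaling. The log2 value was 0.58 ± 0.23, with an unadjusted p of 0.0298 and an adjusted p of 0.196, and it was 0.78 (adjusted p = 0.0385) without vehicle replicate 2. The adjusted p of Ern1 ranged from 0.0385 to 0.441 over the alternatives. Atf6 was at 31.7, 29.7 and 30.9 CPM in naive, 34.5, 34.3 and 34 CPM in vehicle and 37.6, 36.8 and 32.1 CPM in GV1001 libraries. In CPM this was a complete separation of EAE from naive with a small log2 value in vehicle, 0.13 ± 0.12 (adjusted p = 0.613). GV1001 replicate 3 and naive replicate 1 were close, with TMM factors of 1.005 and 0.9872. The separation of the GV1001 libraries of Atf6 therefore depends on the scaling. Eif2ak3 (PERK) was at 23.7, 21.4 and 25.4 CPM in naive, 23.5, 21.3 and 22.5 CPM in vehicle and 20.6, 18.5 and 19.6 CPM in GV1001 libraries. All 3 GV1001 values were below the other 6, and vehicle against naive gave -0.10 ± 0.14.

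The integrated stress response genes showed no common direction: of 5 tested members, 2 were positive and 3 negative in vehicle against naive, with a median of -0.01. Atf4, its transcription factor, which is controlled mainly at translation, was at 92.3, 109 and 108 CPM in naive, 107, 81.9 and 76.2 CPM in vehicle and 81.1, 112 and 98.6 CPM in GV1001 libraries. The groups overlapped, with a log2 value of -0.25 ± 0.16 (adjusted p = 0.452). Asns (asparagine synthetase), a classical Atf4 target whose element is printed above, was at 55.1, 47.3 and 49.8 CPM in naive, 33, 53.2 and 39.6 CPM in vehicle and 48.6, 49.4 and 50.9 CPM in GV1001 libraries. Vehicle replicate 2 was within the naive range and the other vehicle libraries below it. Its log2 value was -0.31 ± 0.15 (adjusted p = 0.303), and -0.50 (adjusted p = 0.0346) without vehicle replicate 2. Ppp1r15a (GADD34), which returns eIF2 to its active form, was at 12.1, 14 and 13.5 CPM in naive, 16.3, 14.9 and 19.3 CPM in vehicle and 15.7, 18 and 16 CPM in GV1001 libraries. All 6 EAE values were above naive, with 0.32 ± 0.17 (adjusted p = 0.331) in vehicle.

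The pro-apoptotic factor Ddit3 (CHOP) was at 39.7, 37.5 and 41.5 CPM in naive, 48.7, 27.8 and 43.4 CPM in vehicle and 35, 36.5 and 36.6 CPM in GV1001 libraries. The vehicle libraries lay on both sides of naive, and the log2 value was -0.01 ± 0.18 (adjusted p = 0.982). Chac1, which breaks down glutathione, was at 9.98, 7.25 and 6.68 CPM in naive, 5.75, 8.96 and 10.8 CPM in vehicle and 10.8, 8.46 and 9.55 CPM in GV1001 libraries, overlapping throughout, with a vehicle against naive value of 0.06 ± 0.27. Trib3, an inhibitor of Atf4 signalling, had 10, 25 and 26 counts summed over the naive, vehicle and GV1001 groups. Its levels were 0.356, 0.518 and 0.902 CPM in naive, 0.898, 1.52 and 2.09 CPM in vehicle and 1.7, 1.59 and 1.3 CPM in GV1001 libraries, near the level of a few reads and without a test.

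Other genes of these pathways were read from 4 further lists. Of 51 tested ER folding, quality control and unfolded protein response genes, 36 were positive in vehicle against naive with a median of 0.18. At an unadjusted p under 0.05, 14 were higher and none lower, beside 19.3% of all genes. Without overlap 21 were higher and none lower, beside 13.6% and 9.5%, and none passed the adjusted test. Edem1, which directs misfolded glycoproteins to degradation, had the largest positive value among those at 5 CPM or more, 0.77 ± 0.23 (adjusted p = 0.11, with 0.0364 by DESeq2 and 0.0244 without vehicle replicate 2). Hyou1, the HSP110-type chaperone of the ER, had the most negative at that level, -0.32 ± 0.22 (adjusted p = 0.476). Of 42 cytosolic chaperones and co-chaperones, 14 were positive and 28 negative (median -0.08), from -0.69 ± 0.20 for the co-chaperone Dnajc7 (adjusted p = 0.105, and 0.0239 by DESeq2) to 0.81 ± 0.25 for the HSP90 immunophilin Fkbp5 (adjusted p = 0.113), a glucocorticoid-responsive gene. Of 11 mitochondrial chaperones and proteases, 5 were positive (median -0.01), from -0.36 ± 0.14 for the protease Yme1l1 to 0.21 ± 0.21 for the protease Htra2.

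Of 28 other integrated stress response genes, 19 were positive (median 0.20), with Vldlr, a lipoprotein receptor, the lowest at -0.27 ± 0.11 (adjusted p = 0.213). Within it Atf3, a stress-induced transcription factor, was the one gene of all lists that rose past the threshold. It was at 0.713, 1.04 and 0.902 CPM in naive, 18.9, 9.34 and 13.4 CPM in vehicle and 2.08, 5.11 and 4.05 CPM in GV1001 libraries. The 3 groups did not overlap one another. Vehicle against naive gave a log2 fold change of 3.92 ± 0.47 (edgeR adjusted p = 0.0258). The call was lost under several alternatives, among them limma-voom (adjusted p = 0.0869), a fit with only the vehicle and naive libraries in the fit (0.0545) and without any one of naive replicates 1, 2 and 3 (0.258, 0.206 and 0.242), vehicle replicate 3 (0.0745) or GV1001 replicate 3 (0.0778). DESeq2 gave 2.35e-09. Atf3 is also an immediate early and injury response gene. Of the 11 immediate early markers, 4 lay above naive in every vehicle library and 1 lay below. These markers summed to 289, 220 and 282 CPM in vehicle against 180 to 207 CPM in naive libraries. Their part in the Atf3 value was not tested.

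GV1001 against vehicle shares the vehicle libraries with the comparison above, so opposite signs in the 2 comparisons are tied to those 3 libraries. All 14 ER members had negative log2 values (median -0.14, from -0.35 to -0.02), while 5 of 7 cytosolic, 4 of 4 co-chaperone and 3 of 3 mitochondrial members were positive (medians 0.09, 0.02 and 0.05). Some of these positive values were near 0 and smaller than their SE, such as Hsf1 (0.00 ± 0.27), Bag3 (0.01 ± 0.17), Hspa9 (0.01 ± 0.08) and Hsp90aa1 (0.01 ± 0.13). With Hspa1a and Hspa1b counts summed, 3 cytosolic values were positive (median 0.04). Over all genes the median was -0.01 and 48.6% were positive. No member passed, and 0 genes in all did (0%). At an unadjusted p under 0.05 there were 2 higher members, Dnajb1 and Hspa1b, and 2 lower, Pdia6 and Manf, beside 9.08% of all genes. DESeq2 called no member, with 2 at an unadjusted p under 0.05, and limma-voom none, with 4. Without overlap in CPM there were 3 higher members (Hspa1b, Hspa8 and Dnajb1), beside 5.44% of all genes, and 4 lower (Canx, Pdia6, Manf and Eif2ak3), beside 5.03%. The separation of Hspa8 depends on the scaling.

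The most negative ER values in GV1001 against vehicle were those of Sdf2l1, Pdia6, Dnajc3 and Manf. Pdia6 gave -0.30 ± 0.11 on the log2 scale (unadjusted p = 0.0185, edgeR adjusted p = 0.528). Manf gave -0.24 ± 0.11 (adjusted p = 0.545) and Dnajc3 -0.27 ± 0.13 (adjusted p = 0.55). For Hspa5 the value was -0.18 ± 0.13 (adjusted p = 0.69), and for Sdf2l1 -0.35 ± 0.27 (adjusted p = 0.709), which became 0.01 without vehicle replicate 1. Without that library 3 of 14 ER values were positive (median -0.10), and 3 of 7 cytosolic values were (median -0.01). The ER median was -0.26 without GV1001 replicate 2, -0.22 without vehicle replicate 2 and -0.21 without vehicle replicate 3, and the cytosolic median was 0.04 without vehicle replicate 3 and 0.06 without GV1001 replicate 1. The GV1001 libraries were not alike: the median log2 level of the ER list relative to naive was 0.06, 0.32 and 0.05 in replicates 1 to 3, and replicate 2 was also the GV1001 library with the highest leukocyte marker sum, 2805 CPM against 554 and 920 CPM. It also had the highest reactive astrocyte sum, 2043 CPM against 653 and 1195 CPM, and the lowest neuron sum, 6731 CPM. The part of any of these cells in the ER values was not tested. Among the sensors Ern1 gave -0.35 ± 0.23 and Eif2ak3 -0.20 ± 0.14.

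**Figure D4:**
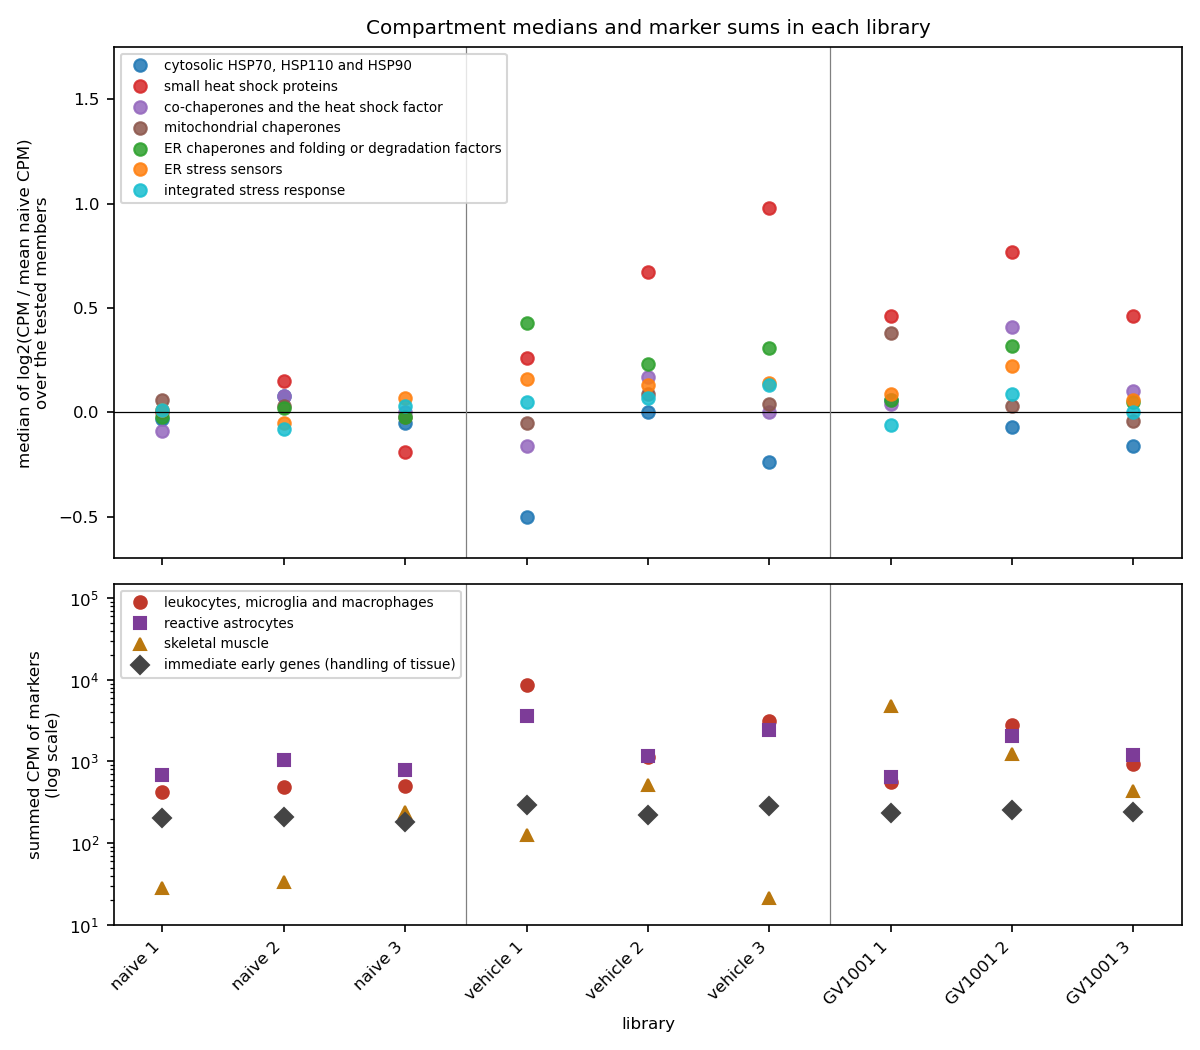
Top, for each of the 9 libraries (x axis), the median over the tested members of a compartment of log2 of the level relative to the naive mean CPM (y axis); bottom, summed CPM of 4 marker lists on a log scale. The ER median is highest in vehicle replicate 1 (0.43) and, among GV1001 libraries, in replicate 2 (0.32), the libraries of each group with the highest leukocyte and reactive astrocyte marker sums, and the cytosolic median is lowest in vehicle replicate 1 (-0.50).

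On the cytosolic side Dnajb1 gave the smallest p in GV1001 against vehicle, with a log2 value of 0.38 ± 0.12 (unadjusted p = 0.0108, adjusted p = 0.528), and stayed positive without each library in turn, from 0.30 to 0.46. Hspa1b gave 0.98 ± 0.41 (adjusted p = 0.539) from 38 counts in vehicle and 78 counts in GV1001 libraries. Its near-identical neighbour Hspa1a gave 0.20 ± 0.32, which became -0.04 without vehicle replicate 1, and the summed counts of both genes gave 0.39 ± 0.30 (adjusted p = 0.702). Hsph1 gave 0.20 ± 0.20, which became -0.01 without vehicle replicate 1, and Asns gave 0.25 ± 0.15 (adjusted p = 0.636). Cryab gave 0.21 ± 0.14 (adjusted p = 0.667) and Hspb1 -0.34 ± 0.25 (adjusted p = 0.683). Skeletal muscle, which carries much of both small heat shock proteins, had marker sums of 4739, 1246 and 434 CPM in GV1001 replicates 1 to 3 against 127, 520 and 21.1 CPM in vehicle, with 2 of 10 markers above every vehicle library and none at 0 in all naive libraries. Schwann cell markers, from the nerve roots, summed to 2163, 2251 and 3133 CPM in GV1001 against 441, 1407 and 2234 CPM in vehicle libraries, with 3 of 7 above every vehicle library. The part of either tissue in these values was not tested. Without GV1001 replicate 1 the values were 0.15 for Cryab, -0.19 for Hspb1, 0.41 for Dnajb1 and 0.98 for Hspa1b.

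In the wider lists the same comparison gave 33 negative values among 51 other ER genes (median -0.11) and 29 positive values among 42 other cytosolic chaperones (median 0.07). Atf3 had the most negative value of the 4 lists, -1.87 ± 0.35, with an unadjusted p of 0.00025 and an adjusted p of 0.528, and 0.0289 by DESeq2. The most positive was Hspb2, a small heat shock protein of heart and skeletal muscle, at 1.47. The other integrated stress response genes had a median of -0.04.

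GV1001 against naive, which shares libraries with both comparisons above, had 24 positive and 14 negative members (median 0.11, all genes 0.00 with 50.5% positive), and none passed, as in 0% of all genes. At an unadjusted p under 0.05 only Hspb1 was found, beside 7.3% of all genes, and each of DESeq2 and limma-voom also called no member, with 1 at an unadjusted p under 0.05. The Hspb1 value was 0.94 ± 0.26, with an unadjusted p of 0.00448 and an adjusted p of 0.64, and it was 0.61 without GV1001 replicate 2 and 1.09 without GV1001 replicate 1. Tested members without overlap in CPM were higher for 9 genes (Hspb1, Cryab, Dnajb1, Creld2, Manf, Herpud1, Atf6, Ern1 and Ppp1r15a), beside 10.2% of all genes. They were lower for 4 (Hspa8, Canx, Eif2ak3 and Ddit3), beside 6.7%. Some of these separations, among them those of Atf6 and Ern1, were narrow and depend on the scaling. The untested Trib3, at few counts, was also higher in every GV1001 library than in every naive one. Creld2 gave 0.37 ± 0.24, Ppp1r15a 0.30 ± 0.17 and Eif2ak3 -0.29 ± 0.14, none with an adjusted p under 0.705. In the ER list 12 of 14 values were positive, with a median of 0.12, beside 0.32 in vehicle against naive from the same naive libraries. Without GV1001 replicate 2 there were 11 positive values and the median was 0.06. The cytosolic list had 2 of 7 positive and a median of -0.11, which was -0.17 without GV1001 replicate 1 and -0.05 without GV1001 replicate 3.

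With all 6 EAE libraries set against the 3 naive ones, 25 members were positive and 13 negative (median 0.11). No member passed the edgeR test, where 0.00651% of all genes did. At an unadjusted p under 0.05 there were 4 higher members, Hspb1, Manf, Pdia6 and Dnajb11, and 1 lower, Hspa8, beside 15.3% of all genes. DESeq2 called 1 member, Hspb1, beside 3.41% of its genes, and limma-voom none, with 4 at an unadjusted p under 0.05. Hspb1 gave 1.11 ± 0.24 (unadjusted p = 0.000657, edgeR adjusted p = 0.167, and 0.0452 without vehicle replicate 2) and Manf 0.26 ± 0.09 (adjusted p = 0.241). In 6 members, Hspb1, Creld2, Manf, Atf6, Ern1 and Ppp1r15a, every EAE library stood above every naive library in CPM, beside 5.25% of all genes. For Atf6 and Ern1 this was narrow and depends on the scaling. In 1 member, Hspa8, every EAE library stood below, beside 2.78%. These 7 genes come from 5 compartments: a small heat shock protein, a constitutive cytosolic HSP70, a pair of ER proteins, a pair of ER stress sensors and an eIF2 phosphatase subunit.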

How the data were processed

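QuantSeq 3′ mRNA libraries were made from total RNA extracted with TRIzol or a Maxwell RSC kit, per the labels' protocols, with no statement of which sample had which. The authors deposited raw read counts by gene symbol for each library and as a table of all samples. All 9 library files held the same values as that table. The submitters' processing notes name FastQC, STAR, HTSeq and the build GRCm39, without versions. The annotation, the strand setting and any use of molecular identifiers are not given in the sources used here. The floor of 3 counts therefore covers counting error only.

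Groups came from the titles and treatment labels. Genes were filtered with filterByExpr (minimum count 10), which left 15351, and scaled by TMM. A single model of the 9 libraries, with a coefficient for each group, was tested by the quasi-likelihood method of edgeR 4.0.16. Adjusted p is by Benjamini-Hochberg over all tested genes, with a threshold of 0.05, and SE is derived from the F statistic. The procedure was also run on simulated counts with the same fixed dispersion for every gene. That setting lacks the differences seen between these libraries, so it does not show how the test performs on them. DESeq2 1.42.0, limma-voom (limma 3.58.1), other scaling, other filters, the older form of the edgeR fit, 2 groups only, a replicate block, summed Hspa1a and Hspa1b counts and leaving out each library were alternatives, in R 4.3.3. Python 3.11.15 with matplotlib 3.10.9 made the figures.

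The members and lists were chosen with earlier results of these data known. Values in every library are given by rule for members that passed, the most abundant member of each compartment and the 2 largest vehicle against naive changes at 5 CPM or more. Other members given in full, such as Hspa5, Pdia6, Manf and Dnajc3, and the 10 printed promoter stretches were chosen after their values were seen. Promoters come from RefSeq tables of build GRCm38.p6, and the search for copies of the final 300 bases used GENCODE transcripts of GRCm38, an earlier build than that of the counts.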

Additional observations from a re-analysis of the deposited data

How the results depend on the processing

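No member passed in any of the 4 comparisons with limma-voom, other size factors, library totals only, a looser filter at 1 CPM, the older edgeR fit or summed Hspa1a and Hspa1b counts, nor in the 3 comparisons of a pair of groups with only those groups in the fit. With the replicate number as a block the count was 0 in all 4 as well. The labels do not say that numbers pair samples, and 2 of 9 same-number pairs correlated above 0.1, so that not every library correlated with its own number. Under the block the adjusted p of Atf3 was 0.146. DESeq2 called 2 members in vehicle against naive and 1 in all EAE against naive, and edgeR without a filter called 1 in vehicle against naive. Leaving out 1 library gave 0 to 5 members in vehicle against naive and 0 to 1 in all EAE against naive, with the highest counts without vehicle replicate 2. In vehicle against naive the sign changed for Cryab (0.01) and Hspa9 (0.01) with library totals only, and for Ddit3 with DESeq2-type size factors (0.00), library totals only (0.02) and 2 groups only (0.01). When 1 library was left out, signs changed in vehicle against naive within these ranges of log2 values: Cryab -0.16 to 0.13, Hspa1a -0.49 to 0.20, Hspa1b -0.67 to 0.11, Hspa4 -0.07 to 0.11, Dnaja1 -0.26 to 0.08, Bag3 -0.01 to 0.20, Hsf1 -0.09 to 0.32, Hspa9 -0.05 to 0.00, Hspd1 -0.23 to 0.02, Calr -0.03 to 0.29, Pdia3 -0.41 to 0.16, Ddit3 -0.20 to 0.20, Chac1 -0.14 to 0.26 and, of the other pathway genes, Htra2 -0.05 to 0.35. In GV1001 against vehicle 17 of 38 tested members changed sign in this way, among them Hsph1 (-0.01 to 0.45), Sdf2l1 (-0.56 to 0.01) and Hspa1a (-0.04 to 0.65). In GV1001 against naive and in all EAE against naive 10 members each did. The cause of these changes was not tested, beyond the smaller number of libraries. Of 273 compartment medians under other settings, 267 moved by less than the spread between replicates, and the other 6 were of the integrated stress response list. Depth limits the members with the fewest counts summed over the vehicle libraries, which were Trib3 (25), Hspa1b (38), Chac1 (141), Hspa1a (143) and Creld2 (162).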
